A study of Homo sapiens with 6 samples.

Results

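Peptide phosphorylation by lysates of unstimulated macrophage-like THP-1 cells was described on the 2 arrays titled Unstimulated, out of 6 arrays in the series. THP-1 is a human monocytic leukaemia line. Per the labels, the cells were made adherent and macrophage-like with phorbol 12-myristate 13-acetate (PMA), an activator of protein kinase C, for 24 hr, and were then rested in fresh medium for 24 hr. No cytokine was added to them, and the other 4 arrays, from cells stimulated with IL-32 or IL-17, enter no result here. The arrays come from separate biological experiments, called experiment 1 and experiment 2 below, with 1 array each. Of the 300 peptides printed, 298 carry a human protein name; all 298 were ranked by the mean log2 ratio of foreground to local background over their 3 spots on each array and then over both arrays. A value of 0 means that the spots were as bright as the glass around them.

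A kinase moves the terminal phosphate of ATP to a serine, threonine or tyrosine of its substrate, and a kinome array offers a cell lysate many short peptides, each made after a known site. Pro-Q Diamond, the dye used, binds phosphate on any of these residues, so a bright spot marks a phosphorylated peptide and not which kinase acted on it. In macrophages, tyrosine kinases of the Src, Syk and focal adhesion families lie downstream of adhesion and growth factor receptors, while serine and threonine kinases of the MAP kinase, IKK and IRAK families carry signals from Toll-like and cytokine receptors. The name of a peptide gives the protein it was modelled on, and its signal does not show that this protein was present in the cells. No array without lysate was analysed here, so stain held by a peptide itself and phosphate added by the lysate cannot be told apart.

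Each array held 900 spots. The median spot foreground was 25672 on the array of experiment 1 and 24633.5 on that of experiment 2, over a median local background of 20976.5 and 20034.5. In experiment 1 30.1% of spots, and in experiment 2 29.8%, were dimmer than their own local background. No spot was at the scale maximum, and the brightest was at 64389. Local background differed between the 3 places where each peptide was printed, with medians of 15505.5, 20048 and 28126.5 in experiment 1 and 11460, 24069.5 and 19552.5 in experiment 2. The median log2 ratio at these places stayed between 0.36 and 0.51. With 2 arrays, the precision of every value below is limited by their number.

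Resting signal was above local background for most peptides and below it for a sizeable group, and the order was similar in both experiments. The median log2 ratio was 0.46, with quartiles at -0.17 and 0.72. All 6 spots were above background for 182 peptides (61.1%), no spot was for 67 (22.5%), and the other 49 had spots on both sides. Against the spread between experiments, limma with Benjamini-Hochberg adjustment called 188 peptides above background (63.1%) and 69 below (23.2%), and 41 (13.8%) were called neither. The range was narrow: 14 peptides had a foreground more than 2 times the background, and 8 less than 0.5 times. With each array centred on its median peptide, so that the question becomes which peptides stand above the typical one, 85 were called above (28.5%) and 103 below (34.6%). With 1 background value for the whole array in place of the local one, 122 were called above.

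**Figure D1:**
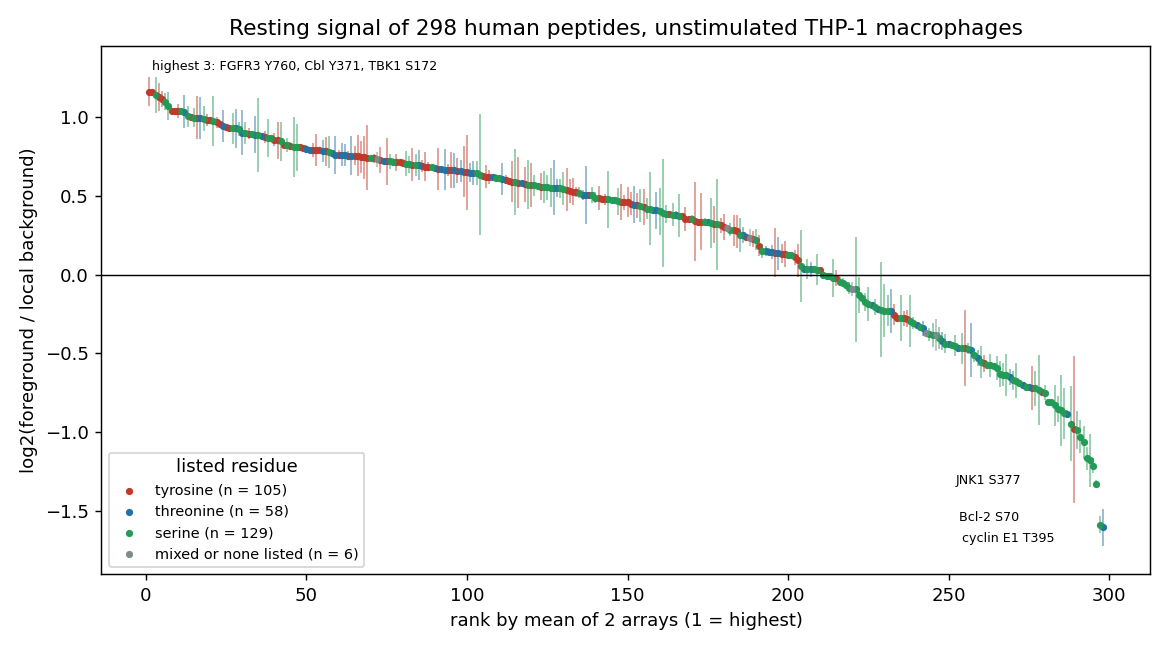
The 298 human peptides in order of their mean log2 ratio of foreground to local background over the 2 unstimulated arrays (vertical axis), by rank (horizontal axis), coloured by listed residue, with bars that join the values of the 2 arrays. The curve crosses 0 after rank 210 and drops steeply among the last 15 peptides, from -0.85 to -1.60.

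Some receptor peptides were among the 25 highest, while other receptor peptides, named further below, were under background. FGFR3 Y760, a site of a fibroblast growth factor receptor that binds phospholipase C gamma, was first, with log2 ratios of 1.25 in experiment 1 and 1.07 in experiment 2 (mean 1.16 ± 0.13, SD, n = 2). Its spots averaged 48586 over a background of 20615.7 in experiment 1 and 35919.7 over 17671 in experiment 2, and the foreground was 2.24 times the background in the mean. Both juxtamembrane peptides of FLT3, a receptor of blood cell progenitors, were among the 25 highest: Y589/91 had log2 ratios of 1.16 and 1.06, and Y597/9 had 0.96 and 1.00. IL7R Y449, in the receptor for interleukin 7, had 1.04 on both arrays. IGF1R Y1166, in the activation loop of the insulin-like growth factor 1 receptor, had 0.99 and 1.02. PDGFRb Y579/81, of a platelet-derived growth factor receptor, had 1.00 and 0.93. Each of these high receptor peptides lay above background in both experiments, with adjusted p = 0.000302 by limma, the smallest value in the fit.

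Adaptors and kinases that act next to such receptors followed. Cbl Y371, whose phosphorylation switches on the ubiquitin ligase activity of Cbl, was second at 1.13 and 1.18. Paxillin Y31 (PXN Y31), a focal adhesion site of Src and FAK, had 1.21 and 1.04. Pyk2, a kinase related to FAK, was represented by its autophosphorylated residue, and this peptide, Pyk2 Y402, had 1.08 and 0.99. These 3 adaptor and adhesion peptides were high in both experiments. Jak3 Y981, in the activation loop of the kinase that serves the common cytokine receptor gamma chain, had 1.03 and 1.05. PLCG1 Y771, in phospholipase C gamma 1, had 0.86 and 1.13. Akt1 Y326 had 0.94 and 1.02, and A-Raf Y301 had 0.94 and 0.98, 2 tyrosines in kinases whose own substrates are serines and threonines. Aplp1 Y643, of a membrane protein related to the amyloid precursor, closed the 25 highest at 0.94 and 0.93.

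Serine and threonine peptides at the top came from kinases and from proteins of other kinds. TBK1 S172, the activation loop site of the kinase that phosphorylates IRF-3 (rank 3), had 1.03 and 1.25. Cot S400, in the MAP3 kinase also called Tpl2 that links IKK to ERK, had 1.15 and 1.04. ERK1 T202/4, its activation loop, had 0.86 and 1.13. These kinase peptides were high in both experiments, and 2 of the 3 had the higher mean in experiment 2. There, 1 spot of each stood well above the other 2. The spots were at 2.01, 0.82 and 0.92 for TBK1 S172 and at 1.97, 0.52 and 0.64 for Cot S400. Those of ERK1 T202/4 were at 1.65, 0.90 and 0.84. With 1 background value for the whole array, the 3 peptides ranked 61, 93 and 102. The hydrophobic motif peptides of protein kinase C, PKCE S729 and PKCA S656, had 0.91 and 1.07, and 0.82 and 1.13. p70S6Kb S473/4, of the ribosomal S6 kinase 2, had 1.02 and 1.06. Among proteins that are no kinases, p47phox S370, in the organiser of the phagocyte NADPH oxidase, had 0.98 and 1.16, and RhoA S188, a cyclic AMP-dependent kinase site of a small GTPase, had 0.94 and 1.07. HIF2A T840, of a hypoxia-inducible transcription factor, had 0.93 and 1.14, and Elk-1 T417, of an ERK-responsive transcription factor, had 1.04 and 0.84. TPH1 S58, of the enzyme that starts serotonin synthesis, had 1.05 and 0.94. The largest adjusted p among these 25 peptides was 0.000422 (limma).

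At the bottom stood 12 serine, 2 threonine and 1 tyrosine peptides, against 8 serine, 3 threonine and 14 tyrosine peptides among the 25 highest. Cyclin E1 T395, of the cyclin that drives entry into S phase, was last, with log2 ratios of -1.49 in experiment 1 and -1.72 in experiment 2 (mean -1.60 ± 0.16, SD, n = 2). Its spots averaged 6244.67 over a background of 17557 and 5567.33 over 15949.7. Bcl-2 S70, in the loop of an anti-apoptotic protein, followed at -1.53 and -1.64, and JNK1 S377, of a stress-activated MAP kinase, at -1.35 and -1.30. All 6 spots of each of these peptides were darker than the glass around them.

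Several of the lowest peptides, like several of the highest, were from proteins of innate and cytokine signalling. IRAK1 S568 and S376, of the interleukin 1 receptor-associated kinase, had -1.16 and -1.26, and -1.09 and -1.24. IKK-gamma S43, of the regulatory subunit of the IKK complex, had -0.96 and -1.17. IRF-3 S385/6, target of TBK1, had -0.77 and -0.94. The carboxy-terminal serines of the receptor-activated Smads were also low, with -1.01 and -1.34 for Smad1 S462/3/5 and -0.87 and -1.11 for Smad3 S422/3/5. Other transcription regulators in this group were ATF-4 S245 at -0.92 and -1.13, Jun S63, a JNK site, at -0.71 and -1.18, beta-catenin T41/45 (CTNNB1) at -0.86 and -0.91, and LRRFIP1 S690 at -0.64 and -1.09. MKP-1 S323, of a phosphatase that turns MAP kinases off, had -0.72 and -1.04. The tyrosine peptide was CTLA-4 Y201, of an inhibitory T cell receptor, at -1.45 and -0.51, the widest difference between experiments among all human peptides. It was called below background with an adjusted p of 0.00577 (limma), and the largest adjusted p of the other 14 was 0.00105.

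Between these ends, 12 peptides had opposite signs in the 2 experiments. Nearest to 0 on the upper side were SEK1 S80, of a JNK kinase, at 0.03 and 0.03, TNF-R1 S274, of the TNF receptor, at 0.13 and -0.07, and BLNK Y96, of a B cell adaptor, at 0.03 and 0.03. On the lower side, CTNNB1 S675 had 0.01 and -0.01, CREB S110/1, of a cyclic AMP-responsive transcription factor, had -0.01 on both, and Rb S780, of the retinoblastoma protein, had -0.03 and 0.01. None of these was called. The smallest log2 ratio called was 0.20 in size and the largest not called was 0.39.

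Across the 298 peptides the log2 ratios of the 2 arrays had a Pearson correlation of 0.943 and a Spearman correlation of 0.911, a description over peptides that share arrays. The median difference between experiments was 0.0055, experiment 2 minus experiment 1, and the median size of the difference was 0.12, with 90% of peptides under 0.32. Only 6 peptides differed by more than 0.5. Besides CTLA-4 Y201, wide differences were those of PIK3R1 S608/7, of the regulatory subunit of PI 3-kinase, at 1.02 and 0.25, and Src S74, at -0.43 and 0.24. HSP27 S78/82/3, of a heat shock protein that MAPKAPK2 phosphorylates, had -0.53 and 0.08, and the T cell co-receptor peptide CD28 Y206/9 had 0.59 and 0.09. The 3 spots of a peptide spread more in experiment 2, with a median SD of 0.19, than in experiment 1, with 0.097, and 232 peptides had the larger spread in experiment 2. Of the 25 highest peptides of each array 14 were shared, and of the 15 lowest 10 were.

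**Figure D2:**
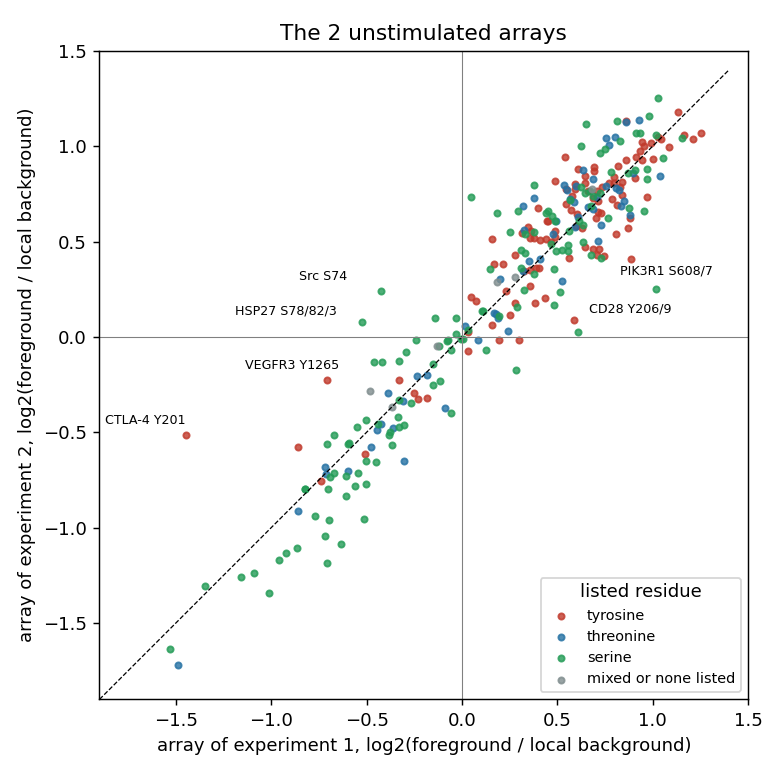
Log2 ratio of foreground to local background of each human peptide on the array of experiment 1 (horizontal axis) and of experiment 2 (vertical axis), coloured by listed residue, with the line of equal values dashed. Points follow that line, 204 peptides lie above 0 on both arrays and 82 below on both, and 6 peptides with wide differences are named.

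Tyrosine peptides lay highest and serine peptides lowest. The tyrosine peptides, 90 that list 1 residue and 15 that list more, had a median log2 ratio of 0.62, the 58 threonine peptides 0.53 and the 129 serine peptides 0.12. All 6 spots were above background for 86 of the tyrosine peptides (81.9%), 36 of the threonine peptides (62.1%) and 57 of the serine peptides (44.2%). No spot was above background for 5 tyrosine peptides (4.76%), 15 threonine peptides (25.9%) and 45 serine peptides (34.9%). The order held on each array: the medians were 0.60 for tyrosine, 0.48 for threonine and 0.11 for serine in experiment 1, and 0.61, 0.57 and 0.11 in experiment 2. With 1 background value for the whole array, fewer peptides of each class had all 6 spots above. The threonine and serine shares then lay close together, with the tyrosine share still the highest (counts in the closing section). By limma, 88 tyrosine, 37 threonine and 60 serine peptides were called above background, and 9, 13 and 45 below. These classes are different sets of printed peptides, so the differences describe this array, and the part of peptide sequence in them was not tested.

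**Figure D3:**
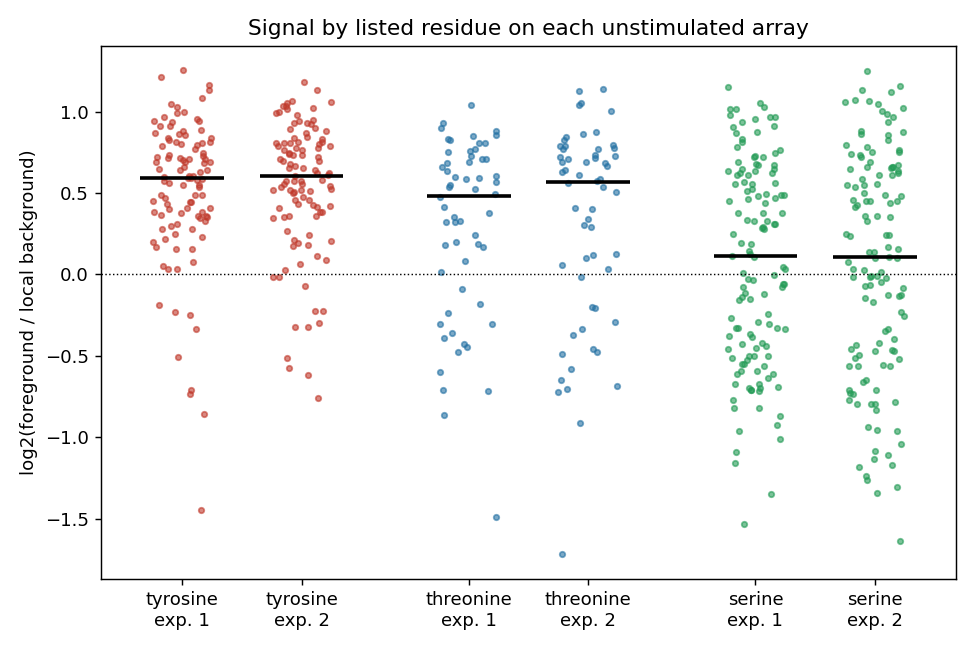
Log2 ratio of foreground to local background of every tyrosine, threonine and serine peptide on each of the 2 unstimulated arrays (points, spread sideways at random), with the class median as a bar. Tyrosine medians lie near 0.6 on both arrays and serine medians at 0.11, and serine peptides fill the range on both sides of 0.

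Some peptides list more than 1 residue. The 15 tyrosine peptides with 2 or more listed residues had a median of 0.75, against 0.59 for the 90 with 1. For threonine the medians were 0.51 for 13 peptides and 0.55 for 45. The 25 serine peptides with 2 or more residues had a median of -0.063, against 0.24 for the 104 with 1. Serine peptides with several listed residues thus had no higher median than those with 1.

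Grouped by pathway, the adhesion and receptor tyrosine kinase lists had the highest medians. The list of Src family, Syk and focal adhesion proteins had a median log2 ratio of 0.75 over 13 peptides, beside 0.46 for all peptides, with 10 called above background and 1 below. Each list count below is to be read against 63.1% above and 23.2% below over all peptides. All counts and directions by list are against local background; relative to the median peptide, lists and residue classes with a median under 0.46 lie on the lower side. Besides Cbl, paxillin and Pyk2, it held FAK Y397, the autophosphorylation site, at 0.84 and 0.75, Syk Y525/6, the activation loop, at 0.58 and 0.74, and CSK Y184 at 0.91 and 0.83. The inhibitory tail tyrosines of Src kinases were on the array for Lyn and Fyn: Lyn Y507 had 0.79 and 0.72 and Fyn Y531 had 0.38 and 0.18. The activation loop peptide Fyn Y420 was at 0.03 and -0.07. Crk Y221, an internal SH2-binding site of an adaptor, was the one called below background, at -0.51 and -0.62.

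Of 27 receptor tyrosine kinase peptides 22 were above background (81.5%) and 3 below, with a median of 0.60, and 83.8% of all tyrosine peptides were above. The macrophage growth factor receptor CSF1R was printed with its juxtamembrane peptide CSFR Y561, at 0.83 and 0.79, and its activation loop peptide CSFR Y809, at 0.17 and 0.38. Both were called above, and Y561 was the higher in both experiments. Below background were VEGFR3 Y1265, at -0.71 and -0.23, and both peptides of Kit, the stem cell factor receptor, Y721 at -0.33 and -0.22 and S821 at -0.50 and -0.77.

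The JAK-STAT list held 26 peptides, with a median of 0.55, 20 above and 5 below. Its receptor and Janus kinase peptides included high ones: IL2RB Y536 had 0.91 and 0.94, Tyk2 Y1054/5 0.97 and 0.73, Jak1 Y1022/3 0.84 and 0.81, and Jak2 Y1007/8 0.47 and 0.50, the last 3 being activation loop sites. The 5 peptides called below were all of STAT factors, although other STAT peptides were above. The dimerisation tyrosines of the STATs ran from STAT4 Y693 at 0.69 and 0.87, over STAT3 Y705 at 0.36 and 0.52 and STAT2 Y690 at 0.31 and 0.54, to STAT6 Y641 at -0.86 and -0.58 and STAT5B Y699 at -0.74 and -0.76. The transactivation serines were split in the same way: STAT4 S721 had 0.65 and 0.75, while STAT3 S727 had -0.50 and -0.43 and STAT5B S731 had -0.37 and -0.56. STAT peptides therefore covered both sides of the background within each residue class.

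Cytoplasmic kinase cascades held peptides on both sides of the background. The MAP kinase list had 21 of 38 peptides above and 7 below, with a median of 0.47. Beside ERK1, activation loop peptides of p38 kinases were above background, with 0.60 and 0.79 for P38 gamma T183/5 and 0.47 and 0.54 for p38-alpha T180/2, and so was ERK2 Y205 at 0.61 and 0.88. Activation loop serine peptides of the MAP2 kinases were lower: MEK1 S217 had 0.11 and 0.14, MEK5 S311/15 0.11 and 0.14, and SEK1 S257/0 -0.34 and -0.42. The tyrosine peptide MEK2 Y216, also of a MAP2 kinase, was called above, with a mean of 0.58. The Toll-like receptor, interleukin 1 receptor and interferon induction list had 10 of 15 above (66.7%) and 4 below (26.7%), near the shares of all peptides, with a median of 0.56, and its members lay at both ends of the ranking. PKR T446 and T451, activation loop sites of the double-stranded RNA-dependent kinase, had 0.68 and 0.67, and 0.66 and 0.68. TAK1 T184, of the kinase downstream of TRAF6, had -0.44 and -0.49.

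The NF-kB list had 10 of 17 above and 4 below, with a median of 0.32. The sites that mark the NF-kB inhibitors for destruction were represented by IkB-alpha S32/36, at 0.33 and 0.24, and by IkB-beta T19/23, at 0.75 and 0.79. IKK-beta was printed with 2 tyrosines, Y199 at 0.86 and 0.93 and Y188 at 0.81 and 0.54. The PI 3-kinase, Akt and translation list had 9 of 14 above and 2 below, with a median of 0.34. It included both priming threonines of 4E-BP1, the inhibitor of cap-dependent translation: T37 had 0.81 and 0.78 and T46, which was not called (adjusted p = 0.050, limma), had -0.18 and -0.20. The protein kinase C, phospholipase and calcium list, which includes kinases that PMA activates, had 9 of 19 above and 7 below, with a median of 0.14. Its low members included calcium-regulated NFAT factors, such as NFAT1 S326 at -0.67 and -0.52, and both PKCB peptides, S15/T16 at -0.48 and -0.28 and T323 at -0.36 and -0.48. NFAT2 S294, at 0.25 and 0.55, was called above.

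The transcription factor and chemokine receptor lists had the lowest medians. The list of other transcription factors and co-activators had 9 of 25 above and 11 below, with a median of -0.0024, and 24 of its peptides list a serine or threonine. HIF1A T796, at 0.63 and 0.88, and BATF T48, at 0.55 and 0.77, followed Elk-1 T417 at its upper end. The chemokine receptor list had 3 of 7 above and 4 below, with a median of -0.29. Its serine and threonine peptides came from carboxy-terminal tails, where G protein-coupled receptor kinases act. Of these 5, CCR7 S356/7, at 0.72 and 0.97, was the highest of the list, and the other 4 were below background, among them IL-8R B S351/2/3, of CXCR2, at -0.55 and -0.71. Its tyrosine peptides were above background, CXCR4 Y157 at 0.56 and 0.41 and CCR2 Y139 at 0.41 and 0.36.

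The remaining lists had medians of 0.38 to 0.58. In the phagocyte oxidase, small GTPase and cytoskeleton list 7 of 10 were above and 2 below (median 0.57). Ezrin T566, in a linker of membrane and actin, had 0.76 and 1.04, RAC1 S71 had 0.78 and 0.86, and p40phox T154, of an oxidase subunit, had 0.85 and 0.71. VASP S156, of an actin regulator, had -0.51 and -0.95, and smMLCK S1773, of smooth muscle myosin light chain kinase, had -0.70 and -0.96. The TNF receptor and apoptosis list had 13 of 19 above and 4 below (median 0.38), from XIAP S87, of a caspase inhibitor, at 0.65 and 1.12, to Bcl-2 S70. The cell cycle and p53 list had 7 of 12 above and 3 below (median 0.43), led by the activating site CDK2 T160 at 0.82 and 0.77. The cyclic nucleotide kinase and metabolism list had 6 of 7 above and none below (median 0.58), among them inducible nitric oxide synthase, iNOS S739, at 0.57 and 0.72. The lymphocyte list had 7 of 9 above and 1 below (median 0.57), led by CD45 Y1216 at 0.80 and 0.81. The 40 peptides in no list had a median of 0.49, with 25 above and 11 below.

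**Figure D4:**
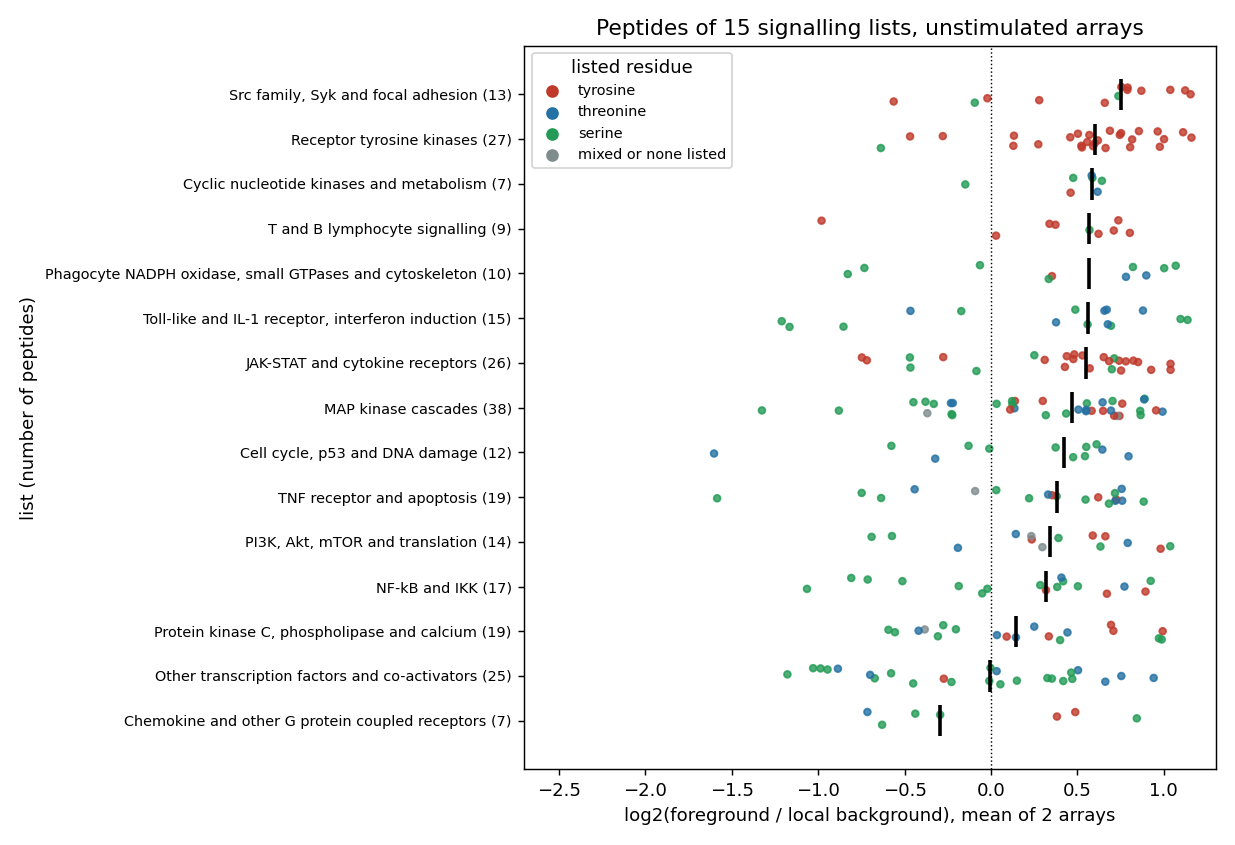
Mean log2 ratio of foreground to local background of the peptides of 15 signalling lists (rows, number of peptides in brackets, 1 point per peptide, coloured by listed residue), with the list median as a bar. Medians run from 0.75 for the Src family, Syk and focal adhesion list to -0.29 for the chemokine receptor list, and most lists hold peptides on both sides of 0.

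Residue and list overlapped. Of the 13 peptides of the Src and adhesion list 11 were tyrosine peptides, of the 27 receptor tyrosine kinase peptides 26 were, and of the 25 transcription factor peptides 1 was. Within lists that hold both kinds, the tyrosine median was 0.61 against 0.084 for serine and threonine in the JAK-STAT list (20 and 6 peptides). It was 0.70 against 0.035 in the protein kinase C list (5 and 13), 0.67 against 0.13 in the NF-kB list (3 and 14), 0.65 against 0.32 in the MAP kinase list (9 and 27) and 0.63 against 0.27 in the PI 3-kinase list (4 and 8). Other lists had the opposite order: the tyrosine median was 0.50 against 0.57 in the lymphocyte list (8 and 1), 0.46 against 0.59 in the cyclic nucleotide list (1 and 6) and -0.27 against 0.015 in the list of other transcription factors (1 and 24). In the phagocyte list the single tyrosine peptide, Cdc42 Y64 at 0.35 on both arrays, was below the median of 0.78 of the other 9. The peptides in no list had 0.46 for 11 tyrosine peptides against 0.52 for 29 serine and threonine peptides.

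Peptides of the same protein were not always alike. The 298 peptides were assigned to 202 genes, of which 81 had 2 or more peptides. In 18 of these 81 genes peptides were called both above and below background, in 26 all were above and in 13 all were below. Over all 298 peptides 63.1% were called above and 23.2% below. Whether peptides of 1 protein differed more or less than peptides of different proteins was not tested. The median gap between the highest and the lowest peptide of a gene was 0.47, and 15 genes had a gap over 1. For scale, all 298 peptides had quartiles at -0.17 and 0.72, and the 2 PLCB1 S887 peptides of the same listing differed by 0.35. The median difference of 0.12 between experiments is that of a single peptide and so is not a like measure. The genes named in the next paragraphs for their gaps were chosen after their values were seen.

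The widest gap was in IRAK1, with 5 peptides, the most of any gene. A gap between highest and lowest can only grow as peptides are added, so this order favours genes with more peptides. T209 and T387, sites phosphorylated while the kinase is activated, had 0.90 and 0.86, and 0.73 and 0.59, and T100 had 0.35 and 0.40, all above background. The serine peptides S376 and S568 were among the 6 lowest of all peptides, which gave a gap of 2.09 ± 0.04 (SD, n = 2). JNK1 came next, with 0.68 and 0.78 for a peptide with no listed residue and a gap of 2.06 ± 0.04 to S377. Akt1 had 4 peptides: Y326 was high, 2 peptides with no listed residue, printed under labels 4 and 5, had 0.18 and 0.29, and 0.28 and 0.32, and S124/9 had -0.67 and -0.71, a gap of 1.67 ± 0.08.

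Transcription factors of inflammation showed the same contrast between their own sites. NF-kB p65 S536, the transactivation site that IKK phosphorylates, had 0.97 and 0.88, S311 had 0.19 and 0.65, and S276, in the Rel homology domain, had -0.69 and -0.73. In IRF-3, S402/5 had 0.56 on both arrays and S396/8 had 0.52 and 0.46, against the negative values of S385/6. Jun S73 had 0.48 and 0.35, while S63, the other JNK site, was among the 15 lowest, a gap of 1.36 ± 0.24. NF-kB p105 S337 had 0.33 and 0.44, and S907 had -0.82 and -0.80. In each of these proteins the order of the sites was the same in both experiments.

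Kinases and receptors behaved alike in this respect. GSK3-beta Y216, the activating tyrosine, had 0.55 and 0.78, and S9, the inhibitory serine that Akt phosphorylates, had -0.59 and -0.56. ASK1, a MAP3 kinase of oxidative stress, had 0.91 and 0.87 for S966, 0.75 and 0.99 for S83 and -0.33 and -0.33 for S1033. CCR7 S356/7 had 0.72 and 0.97, while the neighbouring tail peptide T372/3/4/5/7 had -0.71 and -0.72. VEGFR3 Y130/1 had 0.65 and 0.85, far above Y1265. Other genes gave nearly equal peptides: those of PKR, DAPK3 (T180 at 0.83 and 0.69, T225 at 0.69 and 0.83) and IkB-alpha (Y42 at 0.43 and 0.20) differed from their partners by less than 0.05 in the mean.

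**Figure D5:**
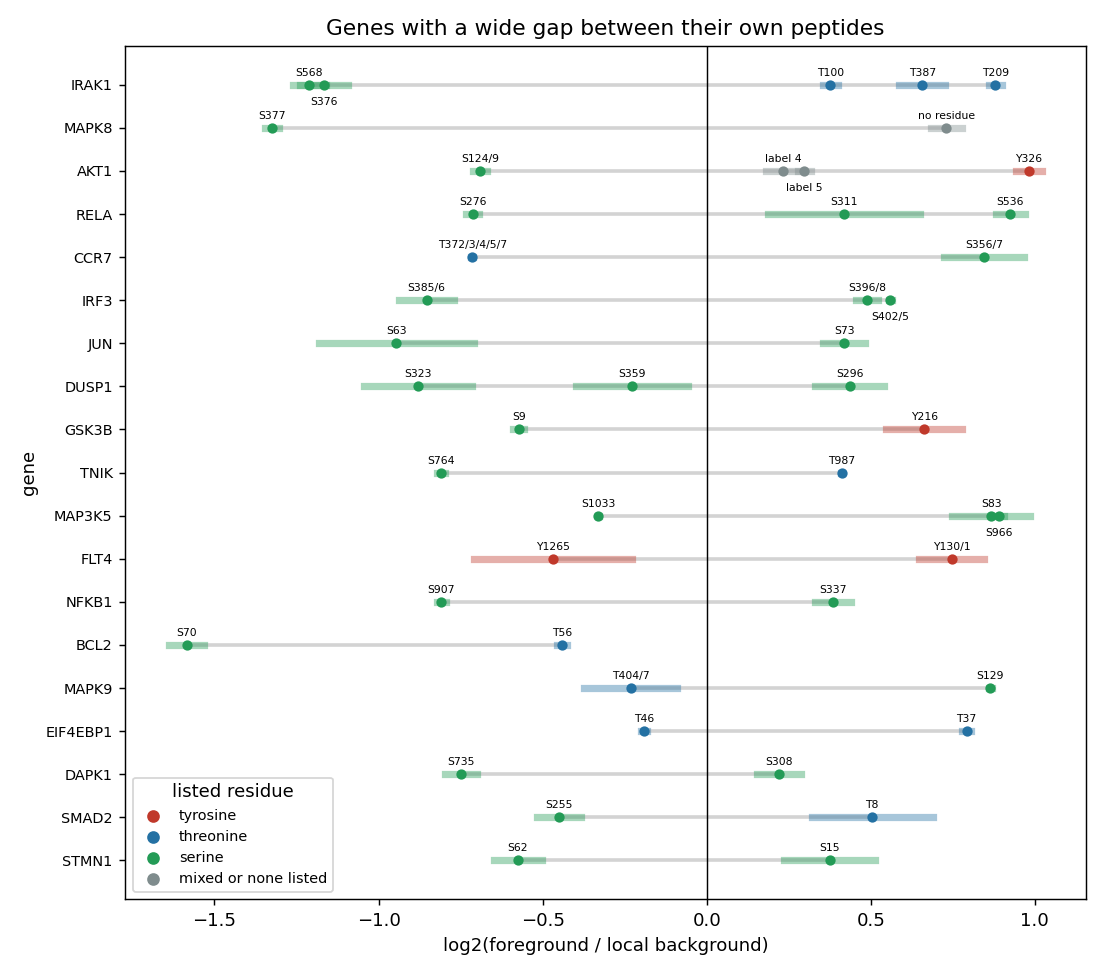
Log2 ratio of foreground to local background of each peptide of genes with a wide gap between their own peptides (rows, by gene symbol). Points are means of the 2 unstimulated arrays, coloured bars join the 2 arrays and grey lines join the peptides of a gene. The gap is widest in IRAK1, at 2.09, and the bars of a gene's highest and lowest peptide do not overlap.

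Tyrosine as well as serine or threonine peptides were printed for 15 genes, which sets the residues side by side within a protein. The tyrosine mean was higher in 12 of the 15, and the median difference, tyrosine minus serine or threonine, was 0.23. The difference was 1.67 in AKT1, 1.24 in GSK3B, 0.91 in STAT3 and 0.61 in IL6ST. It was -0.28 in STAT5B and -0.15 in NOS2. NF-kB inhibitor alpha, at 0.033, was nearest to 0.

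The repeat and the non-human peptides give a scale for these values. PLCB1 S887, of a phospholipase C beta, was printed under 2 labels, with -0.45 and -0.66 under label 235 and -0.15 and -0.25 under label 236, a gap of 0.35 ± 0.07 (SD, n = 2) between peptides of the same listing. The peptide of the Escherichia coli protein FLGE had 0.04 and 0.10, with 5 of its 6 spots above background, and that of the protein RBL2_SYMSP had -0.60 and -0.78, with no spot above. Of the human peptides, 193 exceeded the higher of the 2 FLGE values on both arrays. On both arrays 12 were under the lower of the 2 RBL2 values. The labels do not say whether either was meant as a negative control.

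The label of the cells as macrophage-like could be set beside few peptides. Of 14 macrophage marker proteins 3 were printed, with 4 peptides, and all 4 were called above background, beside 63.1% of all human peptides: p47phox S370, p40phox T154, CSFR Y561 and CSFR Y809. Of 9 T cell markers 2 were printed, with 2 peptides, both called above, among them CD28 Y206/9. Of 6 B cell markers 2 were printed, with 4 peptides, of which BLNK Y72, at 0.71 and 0.77, and both of Btk were above and BLNK Y96 was neither. Since a lysate can phosphorylate a peptide of a protein that its cells lack, these counts do not identify the cells. The p40phox peptide carries the accession of p47phox in the files, and the FRS3 peptide that of FRS2, and both were kept under their printed names.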

How the data were processed

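The values are spot intensities: per the file headers, each array file lists mean foreground and mean local background intensity for 900 spots, as deposited and without subtraction. For scanner and image software, the sources used here name none. The authors' deposited value table holds 1 linear ratio per peptide, found to equal the mean foreground minus background of the 3 spots divided by 1 constant per array (14291.9 and 12796.7) with a floor of 0.01, at which 87 human peptides stood on each array. It entered only as an alternative ranking, and its 4 columns of other arrays were not used.

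For each spot the log2 ratio of foreground over local background was taken, and averaged over a peptide's 3 spots on each array. The mean over the 2 arrays was tested against 0 with limma (3.58.1, R 4.3.3, lmFit and eBayes, intercept only, two-sided) over 298 human peptides, with Benjamini-Hochberg adjustment and a threshold of 0.05. The fit had 1 residual and 4.59 prior degrees of freedom, a prior SD of 0.11 and a median standard error of 0.078, so its calls lean on the spread shared by all peptides. An exact sign-flip test of 2 arrays cannot go below 0.5. The design text describes the experiments as independent.

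Peptides were assigned to genes by hand, with symbols checked against a RefSeq table of GRCh38.p14; peptide sequences were not used here. Named peptides are the 25 highest, the 15 lowest, the 3 nearest 0 on each side, the 8 with the widest array difference, those of genes with 4 or more peptides, and the 3 highest and 2 lowest of each list; others were named after their values were seen. The members and lists were chosen with earlier results of these data known. Alternatives covered the background, centring, spot summary, filters, printing position, variance model and each array left out. A few peptides that this rule names are not reported here.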

Additional observations from a re-analysis of the deposited data

How the results depend on the processing

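No paired analysis was possible because a single group of 2 arrays was used. Without either experiment in turn, limma had no residual degrees of freedom and was not run, the median log2 ratio was 0.41 to 0.46, 189 to 199 peptides had every spot above background and 68 to 81 had none, with 87 to 92 tyrosine, 62 to 64 serine and 37 to 40 threonine peptides fully above. With 1 background value per array, its median, 122 peptides were called above and 67 below, the median fell to 0.22, 83 peptides had all 6 spots above and 37 none, and 38 tyrosine, 29 serine and 14 threonine peptides were fully above. Its 25 highest peptides shared 11 with the ranking by local background, against 18 for the authors' deposited table and 18 for normexp with quantile normalization. Centring each array on its median peptide left 85 above and 103 below, with a median of 0.025. By its construction it also turned signs. Among called peptides these were CD28 Y206/9 (-0.095), Akt1 label 4 (-0.20), Akt1 label 5 (-0.14), IRAK1 T100 (-0.057) and CCR2 Y139 (-0.052). Normexp turned, among called peptides, iNOS Y151 (-0.044), relative to the median peptide. Leaving out the printing position of highest background, the third, gave a median of 0.50. Testing only peptides with a spot above background left 8 called below, since that filter removes the low ones. Over the 99 peptides followed, 661 alternative values kept their direction and call or, where untested, moved by less than the spread between the arrays. Another 24 lost the call and 14 gained it. A further 87 either moved by more than that spread, where untested, or changed the sign of a peptide that was not called. For called peptides, 6 values changed sign. An alternative that needs protein sequence was not run. Signal over background limits the weak peptides: ratios under 0.20 on the log2 scale were never called.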
